A study of Mus musculus with 2 samples.

Results

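The Iroquois homeobox genes Irx1, Irx2, Irx3, Irx4, Irx5 and Irx6 were examined in anterior and posterior limb bud tissue of the mouse. They were taken by symbol, as the probe sets whose annotation gives exactly 1 gene symbol and that symbol is an Iroquois gene. All 6 genes were measured, each by 1 probe set, among 14860 genes measured in all, and 0 probe sets listed an Iroquois gene among several symbols. The tissue came from wild-type embryos of the outbred CD1 stock at embryonic day 10.5. Per the labels, limb buds of 8 litters were cut along the midline, and the pooled anterior and the pooled posterior tissue were each hybridised to 1 Affymetrix array. No allele, transgene or agent separates the groups, and the labels do not name the limb type. With 1 array per tissue there is no replicate error and no test, so every difference below describes these 2 arrays alone, and array and tissue cannot be told apart.

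Iroquois proteins are transcription factors with a homeodomain of the TALE class, which carries a short insertion between its first helices, and with a further conserved motif called the Iro box. In mouse and human the genes lie in a pair of clusters of 3. Irx1, Irx2 and Irx4 form the IrxA cluster and Irx3, Irx5 and Irx6 the IrxB cluster. In mouse genetics the combined early loss of Irx3 and Irx5 removes proximal and anterior parts of the hindlimb skeleton. Shh, the signal from posterior mesenchyme, acts against their function there. A comparison of anterior with posterior tissue bears on whether the family is expressed unequally along the same axis.

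Sequence upstream of the transcription start was at hand for 3 of the 6 genes, Irx2, Irx3 and Irx4, in windows that reach from 250 bases before to 50 bases after a start (RefSeq, build GRCm38.p6). The windows of Irx3 and Irx2 are shown because these members were above background in both tissues and differ in their anterior to posterior contrast, described next. Irx3 lies on the minus strand at chr8:91801605-91801904 and Irx2 on the plus strand at chr13:72628570-72628869. Capitals mark CpG dinucleotides, the targets of DNA methylation.
Irx3: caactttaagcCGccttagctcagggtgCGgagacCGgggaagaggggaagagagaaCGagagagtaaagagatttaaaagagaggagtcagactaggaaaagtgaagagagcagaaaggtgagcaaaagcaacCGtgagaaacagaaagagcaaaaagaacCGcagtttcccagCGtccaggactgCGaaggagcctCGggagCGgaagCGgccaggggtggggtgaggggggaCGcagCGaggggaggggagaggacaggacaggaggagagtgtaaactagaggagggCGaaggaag
Irx2: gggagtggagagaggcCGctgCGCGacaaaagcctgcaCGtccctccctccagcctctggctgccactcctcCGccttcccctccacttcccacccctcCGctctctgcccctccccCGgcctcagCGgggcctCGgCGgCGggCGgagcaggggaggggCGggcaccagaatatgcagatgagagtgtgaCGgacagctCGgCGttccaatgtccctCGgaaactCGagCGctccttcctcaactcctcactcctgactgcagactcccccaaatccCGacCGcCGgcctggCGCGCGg
The Irx3 window held 14 CpG and the Irx2 window 25, against a median of 7 over 32851 windows. The Irx4 window held 31. Of all windows 63.7% held fewer CpG than that of Irx3, 81.6% fewer than that of Irx2 and 89.4% fewer than that of Irx4. Their content of G and C was 56.0%, 69.0% and 70.7% in the order Irx3, Irx2, Irx4, with a median of 52.7% over all windows. The letters GACCACCCA, the consensus of the Gli factors that act downstream of Shh, were in none of the 3 windows on either strand and in 0.253% of all windows. The palindrome ACANNTGT, known as a binding site of Iroquois proteins in the fly, was also in 0 of the 3 and in 7.38% of all, and TGACAG, known for Meis and Tgif proteins, in 0 of the 3 and in 19.2% of all. These absences describe the 300 letters of each window only.

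On the log2 scale Irx3 and Irx5 exceeded their posterior levels by 0.27 and 0.24 in anterior tissue, and Irx2 was nearly equal in both tissues. Irx6 lay above background in anterior tissue alone, by 0.04 on the log2 scale, which fixed its side. Taken against background, its anterior level was higher by at least 1.03-fold. Irx1 and Irx4 were not detected. Detected means that the higher of a gene's log2 RMA values lay above 5.06, the 95th percentile of 853 genes not known from limb buds (olfactory, vomeronasal and taste receptors and beta-defensins). By that floor 4 of the 6 members were detected, Irx2, Irx3, Irx5 and Irx6. None of the 4 passed 1.3-fold, the size the submitters chose for selecting genes, in either direction. In the same comparison 6.53% of the 9017 detected genes passed it, 4.68% toward anterior and 1.85% toward posterior tissue, so a count of 0 of 4 lies near the background. Of the 3 members above the floor in both tissues, Irx3 and Irx5 were higher in anterior and Irx2 in posterior tissue, while 66.8% of all detected genes were higher in anterior tissue, so the direction by itself is also near the background. Fewer cells with the transcript and less transcript per cell cannot be told apart in such pooled tissue.

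**Figure D1:**
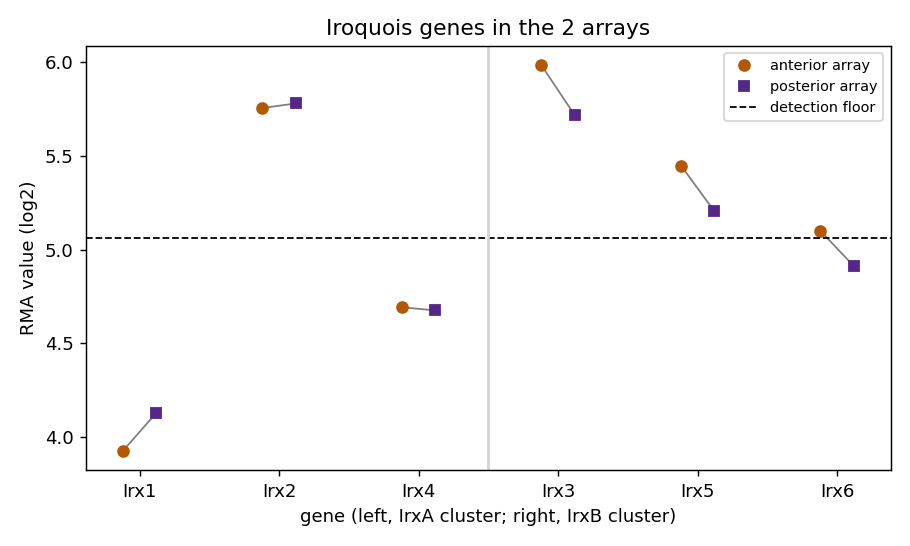
RMA values (log2, vertical axis) of the 6 Iroquois genes in the anterior array (circles) and the posterior array (squares), 1 value per gene and array. The dashed line is the detection floor at 5.06. Irx1 and Irx4 lie under it in both arrays, and Irx3, Irx5 and Irx6 slope down from anterior to posterior. The posterior value of Irx6 lies under the floor.

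Irx3, which in the mouse also patterns the ventral neural tube and acts in the conduction system of the heart, had a level of 5.98 on the log2 scale in anterior and 5.71 in posterior tissue. Both values were above the floor. The difference of 0.27 toward anterior tissue, 1.204-fold, was 1.53 times its local spread of 0.18. The local spread is the robust standard deviation of the log2 differences of the 500 genes nearest in mean level. It holds measurement noise together with real differences among such genes, and no replicate error can be read from it. Of all detected genes 11.1% lay further toward anterior tissue than Irx3.

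Irx5, the cluster neighbour of Irx3 and known in the mouse for its role in cardiac repolarisation and in retinal bipolar cells, had a level of 5.45 in anterior and 5.20 in posterior tissue. These values too were above the floor in both tissues, the posterior one by only 0.14 on the log2 scale. The difference of 0.24 toward anterior tissue, 1.18-fold, was 1.22 times its local spread of 0.20, and 13.5% of detected genes lay further toward anterior tissue.

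Irx6, known from bipolar cells of the mouse retina, had a level of 5.10 in anterior and 4.91 in posterior tissue. The anterior value exceeded the floor by 0.04 on the log2 scale and the posterior value was under it. Its measured difference of 0.19 on the log2 scale was 0.97 times its local spread, and taken against the floor, its anterior level was higher by at least 1.03-fold. Because Irx6 counted as detected through its anterior value alone, its direction was fixed by the floor and is not counted.

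Irx2, known in the mouse from the later digit rays together with Irx1, had a level of 5.75 in anterior and 5.78 in posterior tissue, above the floor in both. The difference of 0.02 on the log2 scale was 0.14 times its local spread of 0.17. Irx1 had a level of 3.93 in anterior and 4.13 in posterior tissue, both under the floor, and no fold is given. Irx4, a gene of the ventricles of the heart, had a level of 4.69 in anterior and 4.68 in posterior tissue, under the floor in both. In these pools the IrxA cluster was thus represented by Irx2 alone, and no test of IrxA against IrxB was made.

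**Figure D2:**
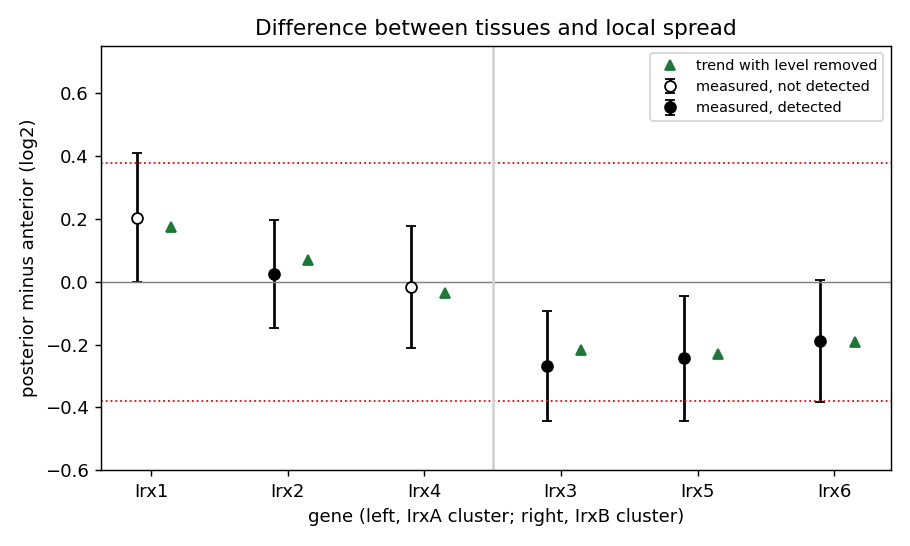
Log2 difference, posterior minus anterior, of each Iroquois gene (circles, filled where detected), with bars of 1 local spread, which is not a replicate error. Triangles show the difference after the trend with level was removed, and dotted lines mark 1.3-fold. The 3 IrxB genes lie below 0 and inside the dotted lines, with and without the correction. The side of Irx6, detected through its anterior value alone, was fixed by the floor.

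Across all detected genes the log2 difference leaned toward anterior tissue, with a median of 0.07, and this lean changed with level. Over the 4 detected Iroquois genes the median difference was 0.22 toward anterior tissue, and over all 6 measured it was 0.10, beside 0.04 over all 14860 genes. Both medians include measured differences of members under the floor in at least 1 tissue. The median of the 4 lies between Irx5 and Irx6, and Irx6 was detected through its anterior value alone. The side of Irx6 was thus fixed by the floor, and no lean of the family is read from this median. After the trend with level was removed, Irx3 and Irx5 differed by 0.22 and 0.23 toward anterior tissue on the log2 scale. On that scale 10.3% and 9.28% of detected genes lay further toward anterior tissue than Irx3 and Irx5. Irx2 was then 0.07 higher in posterior tissue. An offset of 32 on the linear scale, which damps low values, brought the differences of Irx3 and Irx5 down to 0.17 and 0.14 toward anterior tissue.

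**Figure D3:**
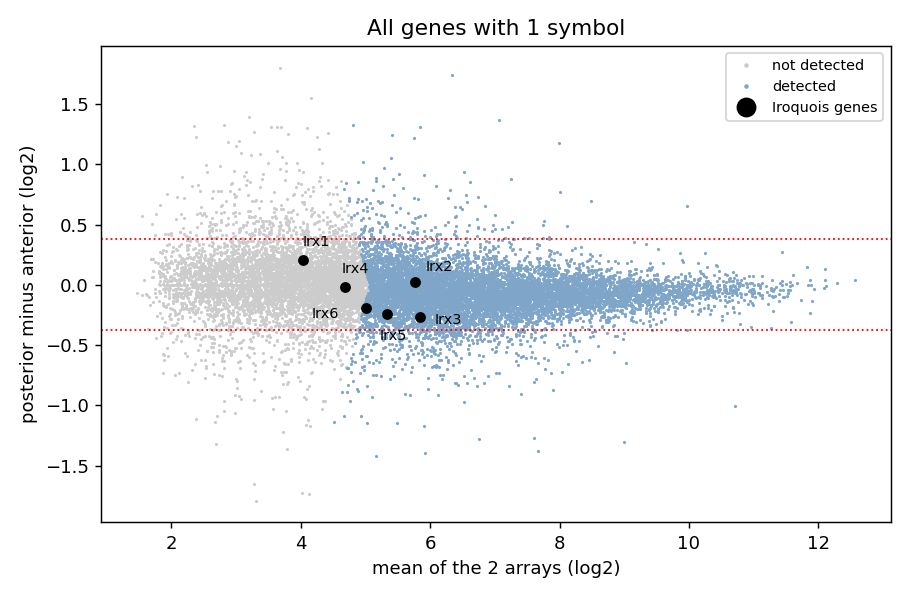
Log2 difference, posterior minus anterior (vertical axis), against the mean of both arrays (log2, horizontal axis) for 14860 genes, coloured by detection, with the 6 Iroquois genes in black. Dotted lines mark 1.3-fold. All 6 lie inside them, in the low to middle part of the range, where the cloud of genes is wide.

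The labels were checked with genes of the Hedgehog pathway. Ptch1, which binds Shh and is induced by it, exceeded its anterior level 2.26-fold in posterior tissue, and Gli1, another induced gene, did so 1.65-fold. Gli3, whose repressor form patterns anterior mesenchyme, was 1.47-fold higher in anterior tissue. Among 12 detected posterior limb and Hedgehog response genes 9 passed 1.3-fold on the posterior side and 0 on the anterior side, with a median log2 difference of 0.68. Of all detected genes 1.85% passed on the posterior side and 4.68% on the anterior side. Shh, among the 9, was above the floor in posterior tissue alone, so its side was fixed by the floor. The largest differences were those of Osr1, Hoxd13 and Prdm1, transcription factors that differed by 1.74, 1.37 and 1.22 on the log2 scale. Among 11 detected genes of anterior and proximal limb mesenchyme 5 passed toward anterior and 0 toward posterior tissue, with a median of 0.37 toward anterior tissue. Both lists were chosen with earlier results of these data known, so these counts are no independent check of the labels. Asb4, which encodes a SOCS-box protein, differed by 1.01, and the homeobox genes Alx4 and Pbx3 by 0.64 and 0.60. Shox2, a homeobox gene of the proximal limb, lay 0.22 toward posterior tissue. The differences of Irx3 and Irx5 were smaller than the median of this anterior list. That median is the value of Pax9, which was above the floor in anterior tissue alone.

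Iroquois proteins share the TALE homeodomain with the Meis, Pbx, Pknox and Tgif proteins. All 9 of these relatives that were measured were detected. Of all detected genes 6.53% passed 1.3-fold in either direction. Among the relatives only Pbx3, a partner of Hox proteins, passed it, toward anterior tissue. Its level was 7.71 there and 7.11 in posterior tissue. Meis1, a marker of the proximal limb, differed by 0.26 and Pbx2 by 0.18 toward anterior tissue, and Pknox2 by 0.05 toward posterior tissue. The median of the 9 was 0.11 toward anterior tissue, beside 0.07 over all detected genes, and 0.03 toward anterior tissue after the trend with level was removed. Pbx3, Meis1 and Meis2 are also on the anterior and proximal list. Among the 29 detected genes of the 3 context lists, those whose log2 difference lay nearest to that of Irx3 over the 2 arrays were Meis1 and Zic2, a zinc-finger gene, at gaps of 0.01 and 0.03. The same genes lay nearest to Irx5, at gaps of 0.02 and 0.05. Pbx2 and Tgif2 lay nearest to the measured difference of Irx6, whose posterior value is under the floor, at 0.01 and 0.05, and Grem1, a BMP antagonist, and Pbx4 nearest to Irx2, at 0.01 and 0.02. With 1 difference per gene, such nearness says only that the sizes were alike.

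**Figure D4:**
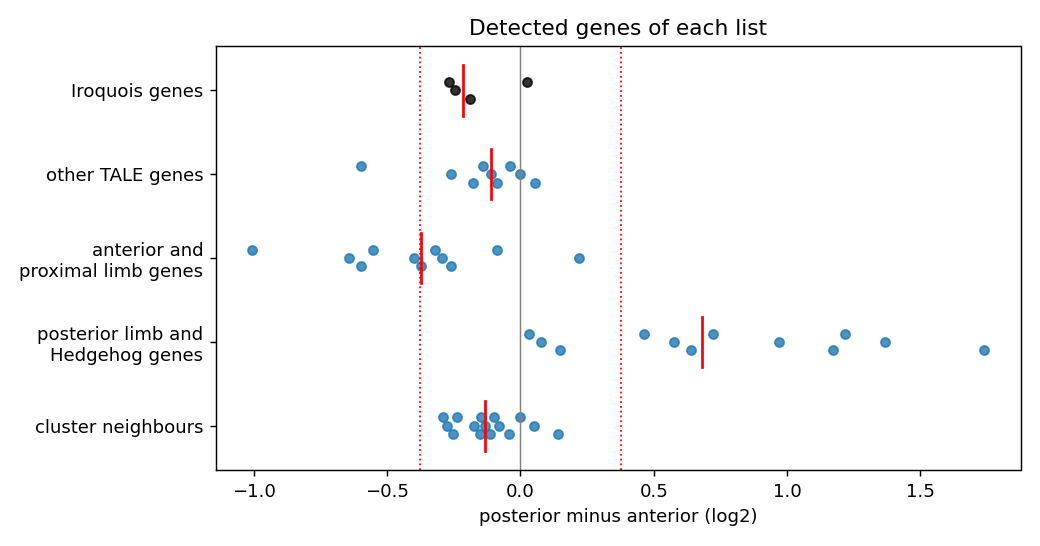
Log2 difference, posterior minus anterior, of the detected genes of each list (points), with the list median as a red bar and 1.3-fold as dotted lines. The Iroquois genes reach from 0.27 toward anterior to 0.02 toward posterior tissue, inside the dotted lines and inside the range of the anterior and proximal list. Their median lies between the medians of the anterior and the posterior list. It includes Irx6, which was detected through its anterior value alone.

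The genes next to the clusters were compared because the Irx3, Irx5 and Irx6 region is lost as a block in the Fused toes mouse mutant, together with Aktip, Rpgrip1l and Fto, and because enhancers within Fto are known to contact Irx3. Neighbours were the 6 protein-coding genes on each side in the GRCm38 gene order, which was used for order alone. For the counts past 1.3-fold, the share over all detected genes was 6.53% in either direction. Of 6 detected neighbours of the IrxB cluster, all 6 were on the anterior side, beside 66.8% of all detected genes, with a median of 0.15 and a range of 0.08 to 0.29, and 0 passed 1.3-fold. After the trend with level was removed 5 of the 6 stayed on that side, with a median of 0.07. Tox3, an HMG-box gene, had the largest difference, from 6.20 in anterior to 5.91 in posterior tissue on the log2 scale. Rpgrip1l, which encodes a protein of the ciliary transition zone, differed by 0.15. Fto, an RNA demethylase gene, differed by 0.08, and Aktip by 0.10. Of 9 detected neighbours of the IrxA cluster 6 were on the anterior side and 2 on the posterior side, which is the share of all detected genes, with a median of 0.11 toward anterior tissue, and 0 passed 1.3-fold. After the trend with level was removed 5 of these 9 were on the anterior side, with a median of 0.03. Tert, the telomerase catalytic subunit, and Lpcat1, an enzyme of phospholipid remodelling, differed by 0.28 and 0.25 toward anterior tissue, and Clptm1l by 0.14 toward posterior tissue. Adamts16, the gene beside Irx1, had a value of 5.63 in each array, and 179 detected genes, itself included, had equal values in both.

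**Figure D5:**
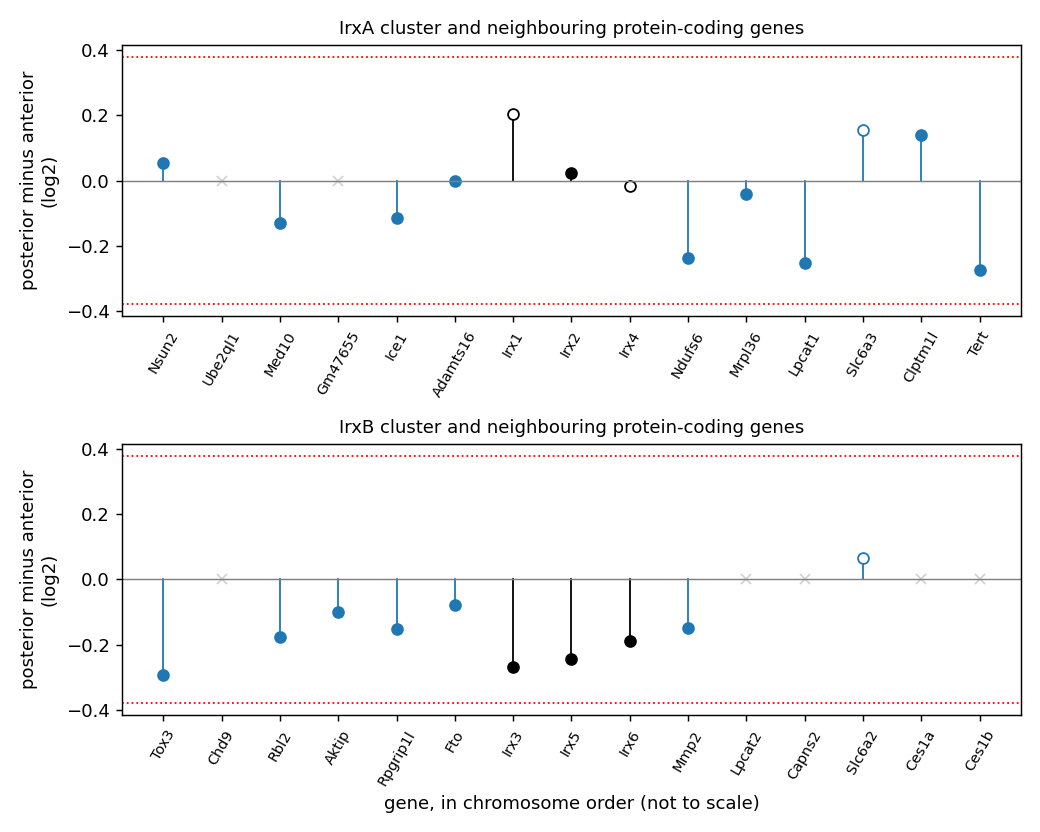
Log2 difference, posterior minus anterior, of the genes around the IrxA cluster (upper panel) and the IrxB cluster (lower panel) in chromosome order, not to scale, with Iroquois genes in black and neighbours in blue. Open circles were not detected, grey crosses on the 0 line were not measured, and dotted lines mark 1.3-fold. Every filled point of the lower panel lies below 0, and none reaches 1.3-fold. The side of Irx6 was fixed by the floor, and 66.8% of all detected genes were higher in anterior tissue.

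A long non-coding RNA gene beside Irx3, Irx3os, is no member of the family and was looked at after its values were seen. Its levels were 4.90 in anterior and 4.38 in posterior tissue. Both were under the floor, so no fold is given.

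Markers of tissues that are known to express Iroquois genes, or that a limb bud dissection can hold, were compared as lists. For the counts past 1.3-fold, the share over all detected genes was 4.68% toward anterior and 1.85% toward posterior tissue. Summed linear levels were taken over all measured genes of a list, those under the floor included. Limb mesenchyme markers were all detected, 8 of 8, and Prrx1, which marks this tissue, measured 10.69 in anterior and 10.56 in posterior tissue on the log2 scale. Of these markers Prrx2, Twist1, Msx1 and Lhx2 passed 1.3-fold toward anterior tissue, whereas Tbx4 and Fgf10 lay 0.38 and 0.09 toward posterior tissue on the log2 scale and did not pass it. Their median was 0.31 toward anterior tissue, the side on which Irx3 and Irx5 were higher, and their summed linear level was 2899 in anterior and 2431 in posterior tissue. Neural markers were detected in 8 of 11 measured, with Sox2 and Pax6 under the floor in both tissues. Dcx exceeded its posterior level 1.79-fold in anterior tissue, Nefm exceeded its anterior level 1.47-fold in posterior tissue, and the summed linear level of the list was 580 in anterior and 526 in posterior tissue. Most of the list did not follow the sum, since 5 of the 8 detected neural markers were on the posterior side and 2 on the anterior side, with a median of 0.09 toward posterior tissue. Among these, Elavl3 was above the floor in posterior tissue alone and Stmn2 in anterior tissue alone, so their sides were fixed by the floor. Of 5 measured heart markers only Nkx2-5 was detected, at 0.33 toward posterior tissue on the log2 scale, and Myl2, Myl7 and Nppa were under the floor; the summed level was 105 and 114. Of 6 measured nephric and intermediate mesoderm markers Pax2 and Wt1 were detected, and the summed level was 174 and 182. Wt1 was on the posterior side, and Pax2 was above the floor in posterior tissue alone, which fixed its side. Somite and body wall markers, 7 of 9 detected, summed to 544 and 605. Meox2, above the floor in both tissues, exceeded its anterior level 1.41-fold in posterior tissue. Foxc2 was above the floor in anterior tissue alone and Myod1 in posterior tissue alone, so the floor fixed the sides of both. Taken against the floor, the differences of Foxc2 and Myod1 came to at least 1.39-fold and 1.03-fold. Of the 7 detected ectoderm and ridge markers only Krt5 passed 1.3-fold, toward posterior tissue, and the list summed to 879 and 927. None of 5 endothelial markers passed, with sums of 619 and 600. Of 3 detected blood cell markers Tyrobp, a macrophage gene, was 1.82-fold higher in anterior tissue. The macrophage genes C1qa and Csf1r were under the floor in both tissues. The sums of this list were 6582 and 6578. They came mostly from the globin genes Hbb-y and Hba-x, so they say little on macrophage genes. The part of any of these tissues in the Iroquois differences was not tested.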

How the data were processed

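Biotin-labelled cDNA was made from Trizol-extracted total RNA, per the labels' protocols. The deposited values are log2 RMA values at the core gene level, made with Affymetrix Expression Console (labels) on build mm9 (submitters' processing notes), with no version named. RMA equalises the distributions of the arrays and can compress ratios at low levels. Of 23332 probe sets, 14996 had 1 symbol, 1019 several and 7317 none. Values of a symbol were averaged. There were 0 unmatched columns of values.

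Members and lists were chosen with earlier results of these data known. Named are all members, the 3 detected genes of each context list and of the neighbours with the largest difference and the one furthest the other way, detected markers past 1.3-fold, the 2 genes nearest in difference to each detected member, and Ptch1, Gli1 and Gli3; further names were picked with their values in view. The number of arrays limits precision, and no p-value was computed. Python 3.11.15, pandas 2.3.3 and statsmodels 0.14.6 (lowess, fraction 0.3) were used, and the code was tested on simulated data. Protein sequences were not analysed here. Alternatives were median centring, lowess, the brightest probe set, an offset of 32, thresholds of 1.2-fold and 1.5-fold, and a floor at the 99th percentile or none.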

Additional observations from a re-analysis of the deposited data

How the results depend on the processing

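No Iroquois gene passed 1.3-fold when arrays were centred on their medians, when the trend with level was removed, or with no floor. The other settings at that size could not have raised the count: each member has 1 probe set, the offset of 32 damps every difference, 1.5-fold is stricter, and at the higher floor of 6.01, the 99th percentile, 0 of the 6 members were detected. The levels of the whole family are thus near the limit of these arrays. With a threshold of 1.2-fold the count became 1, that of Irx3, which 11.6% of detected genes also reached toward anterior tissue. Irx3 and Irx5 kept the anterior direction under centring, at 0.25 and 0.23, and with the trend removed, at 0.22 and 0.23. These changes were small beside differences of 0.27 and 0.24, so neither setting was a strict check of direction. The offset of 32 lowered the median of the 4 detected members, Irx6 included, from 0.22 to 0.12 toward anterior tissue. The anterior and proximal list went from 5 genes past the threshold to 3 with the offset, with 1.5-fold and with the higher floor, and to 8 with 1.2-fold. The neighbour genes went from 0 to 2 with 1.2-fold. No paired analysis was possible because each tissue has 1 array and no result comes from a test.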
